A study of Caenorhabditis elegans with 4 samples.

Results

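The REF-1 family of the nematode Caenorhabditis elegans comprises 6 genes, ref-1, hlh-25, hlh-26, hlh-27, hlh-28 and hlh-29, which encode transcription factors of the basic helix-loop-helix (bHLH) class. The genes were taken by their sequence names, T01E8.2, C17C3.7, C17C3.8, C17C3.10, F31A3.2 and F31A3.4, with any isoform letter allowed. Each gave 1 transcript, so the family accounted for 6 of 23181 transcripts and 6 of 19380 named genes. Total RNA of early embryos was hybridised, with the single dye Cy3, to 4 arrays that form 1 group. By its labels every sample is strain PFR40 with the tm1489 allele of hpl-2, a gene for a heterochromatin protein 1 homolog, taken from hermaphrodites with few males. The growth protocol instead gives wild-type N2 adults as the parents, and separate cultures are not stated for the 4 replicates (arrays 1 to 4). Wild-type arrays, to which the design text refers, were not analysed here, so no value below is a difference between mutant and wild type.

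In the Notch pathway a ligand on one cell cuts loose the inner part of a receptor on its neighbour, and that fragment joins the DNA-binding protein LAG-1 in the nucleus to switch on target genes. In the early embryo the receptor GLP-1 acts in this way on descendants of the anterior blastomere AB, and the REF-1 family genes are known as direct targets of these signals. REF-1 proteins carry a pair of bHLH domains and are distant relatives of the Hairy and Enhancer of split repressors that serve Notch in flies and vertebrates. In the descendants of ABp they are known to keep the Notch ligand gene lag-2 off. The founding member, ref-1, was also found through its effect on cell fusion in the epidermis, and is switched on in the endoderm by Notch together with GATA factors.

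The measured values are linear array signals, which the authors had put on 1 common distribution across arrays, with medians between 576 and 591. As background served, on each array, the 95th percentile of log2 signal among 1344 chemoreceptor genes, which encode receptors of sensory neurons. It came to 8.09, 8.45, 8.26 and 8.48 on arrays 1 to 4. Each transcript's log2 signal minus that background was tested against 0 with limma, two-sided, with adjustment over all 23181 transcripts. The p-values measure only the spread between these 4 samples, which may be technical. The labelled stage was checked against known genes, and all 10 maternal and all 10 early zygotic markers passed above background. None of the 6 yolk protein genes of the adult intestine did, and all 6 were called below. Of 14 muscle genes, which are switched on later in embryogenesis, 13 passed. Among all named genes 51.9% were above background and 39.1% below. The 3 transcripts of hpl-2 gave signals between 1378 and 2583. Whether their probes lie inside the tm1489 deletion is unknown here, so this does not check the genotype label.

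Of the 6 family members, 4 were above background and 2 were below it, where 51.9% of all named genes were above and 39.1% below. The genes ref-1, hlh-29, hlh-28 and hlh-26 passed above, in that order of distance from background, and hlh-27 and hlh-25 were the pair below. The median log2 distance from background was 0.74 for the family and 0.865 for all transcripts. Signals depend on each probe's own brightness, so distances from background rank no gene's RNA level over another's. Each sample is bulk RNA, in which fewer expressing cells and less RNA per cell cannot be told apart.

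The signal of ref-1 was 7947, 8993, 8277 and 6953 on arrays 1 to 4, a mean of 8043 ± 848 (SD, n = 4). On every array ref-1 was brighter than all chemoreceptor genes, and array 4 was the lowest of the 4. Its log2 distance from background was 4.65 ± 0.25 (SD, n = 4; limma adjusted p = 8.98e-10). Its 4 distances from background were 4.87, 4.69, 4.76 and 4.29. The largest of its signals was 1.29-fold the smallest.

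The genes hlh-28 and hlh-29, known as near-identical duplicates, lie next to each other on the X chromosome, with no protein-coding gene between them in the RefSeq table. Both measure 1148 bases there. The signal of hlh-29 was 1029, 1542, 1272 and 1361 on arrays 1 to 4, a mean of 1301 ± 213 (SD, n = 4). That of hlh-28 was 574.7, 830.7, 712.1 and 732.7, a mean of 712.6 ± 105.5 (SD, n = 4). Both were lowest on array 1 and highest on array 2, and every one of these values exceeded its array's background. Distances from background were 2.01 ± 0.11 for hlh-29 and 1.15 ± 0.10 for hlh-28 on the log2 scale (SD, n = 4; limma adjusted p = 5.37e-08 and 3.02e-06). Probes of near-identical genes can take up each other's RNA, and the probe sequences were not used here, so the signal of this pair cannot be assigned to one gene or the other.

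The other 3 hlh genes lie together on chromosome II and gave weak signal or none above background. In chromosome order the cluster runs hlh-26, hlh-25, the gene C17C3.11 and hlh-27. The signal of hlh-26 was 344.5, 447.4, 386.3 and 427.7 on arrays 1 to 4, a mean of 401.5 ± 45.7 (SD, n = 4). These values stood close over the background on every array, higher than between 97.2% and 97.5% of the chemoreceptor genes. The log2 distance from background was 0.32 ± 0.04 (SD, n = 4; limma adjusted p = 0.00533). This call depended on where the background was set. With the 99th percentile of the chemoreceptor genes hlh-26 lay at -0.59 and was called below (limma adjusted p = 9.92e-05), while ref-1, hlh-28 and hlh-29 stayed above, and 47.0% of all transcripts were above.

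The signals of hlh-25 were 159.0, 157.8, 155.2 and 138.3 on arrays 1 to 4, and those of hlh-27 were 187.1, 162.5, 176.5 and 168.9. These genes, also known as a closely similar pair, sat among the chemoreceptor genes on all 4 arrays. Between 21.4% and 63.2% of the chemoreceptor genes were at or under the signal of hlh-25, and between 59.9% and 82.2% at or under that of hlh-27. Their distances from background were -1.07 ± 0.25 and -0.88 ± 0.27 on the log2 scale (SD, n = 4), both called below (limma adjusted p = 2.53e-05 and 0.000106). With the 75th percentile of the chemoreceptor genes as background hlh-27 lay at -0.04 and was not told apart from it (limma adjusted p = 0.546). No array here shows that the probes of hlh-25 and hlh-27 respond to their RNA, so low values do not show that the RNA was absent.

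**Figure D1:**
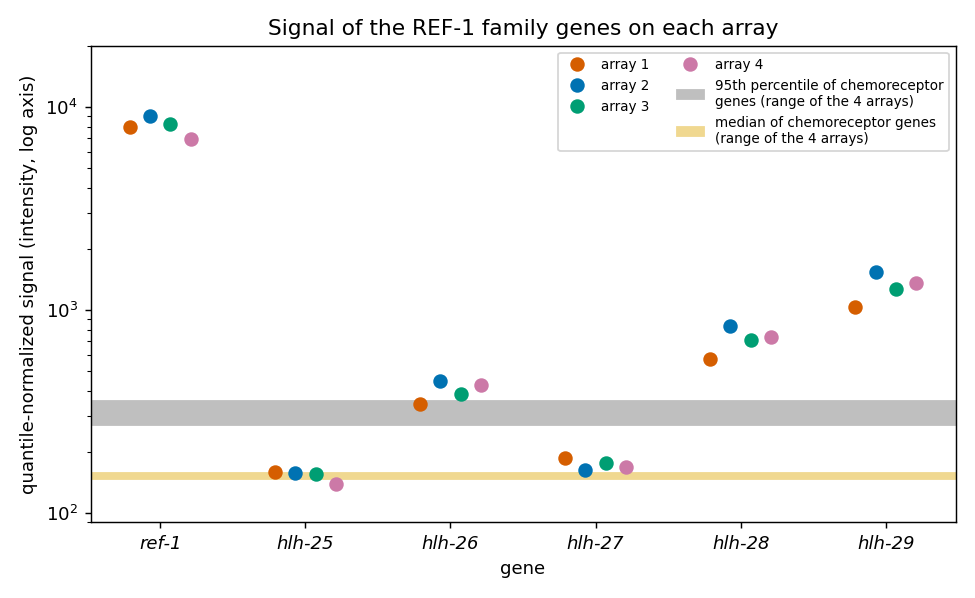
Normalized signal (intensity, log axis) of the 6 REF-1 family genes, with 1 point per array; the grey band spans the 4 arrays' 95th percentile of the chemoreceptor genes and the yellow band their median. The points of ref-1, hlh-28 and hlh-29 sit over the grey band, those of hlh-26 lie in its upper part or just over it, and those of hlh-25 and hlh-27 lie near the yellow band.

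Along the chromosomes, members and their neighbours differed from gene to gene. Next to hlh-26, C17C3.9 was below background at -0.97 log2, as was C17C3.11 inside the cluster at -1.04. On the far side hlh-27 is followed by C17C3.24, for which no transcript was matched, and then by the insulin-like gene ins-13, below background at -1.17. One gene beyond C17C3.9, ZK177.1 lay 4.27 above background. The pair hlh-29 and hlh-28 was flanked by F31A3.3, at 0.05 and not told apart from background (limma adjusted p = 0.674), and by F31A3.5, at 4.84 above it. The muscle potassium channel regulator gene sup-10, one gene further out, was below at -0.69. Around ref-1 the gene T01E8.1 lay 1.35 above background, the phospholipase C gene plc-3 2.46 and the gene arv-1 4.45, while the chemoreceptor gene srh-135 lay at -1.03 and was called below. The signal of T01E8.1 was 1392 on array 1 and between 589.0 and 766.6 on the others, whereas ref-1 was near its mean on array 1.

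**Figure D2:**
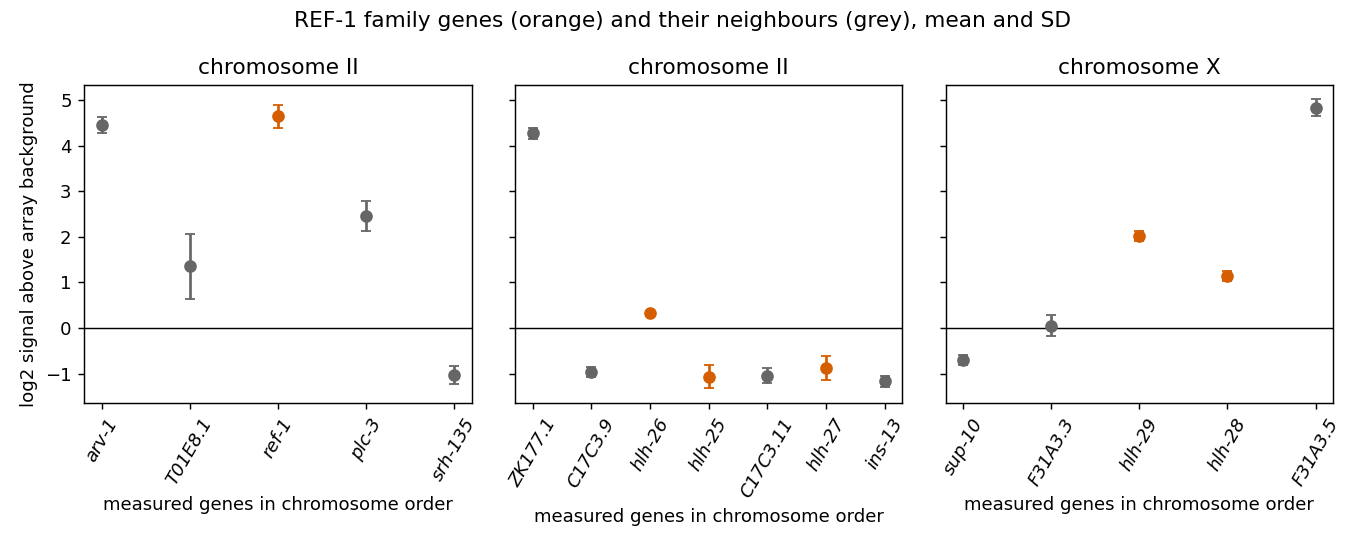
Log2 signal above array background (mean and SD of 4 arrays) for the REF-1 family genes in orange and the measured protein-coding genes around them in grey, in chromosome order. Each of the 3 stretches holds genes on both sides of the background line at 0.

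The listed receptor, cleavage and nuclear complex genes of the Notch pathway were all above background, whereas the ligand genes lay on both sides of it. Of all named genes 51.9% were above. Both Notch receptor genes were above background, glp-1 by 5.99 ± 0.14 and lin-12 by 5.10 ± 0.21 on the log2 scale (SD, n = 4). Of 15 ligand genes, 8 were above, 5 below and 2 were not told apart. The ligand gene apx-1, which signals to ABp in the earliest cleavages, lay 4.24 above background, lag-2 lay 2.45 above and arg-1 0.81. The ligand relatives dsl-4 and dsl-5 were below at -0.89 and -0.94. All 7 genes for receptor cleavage passed, among them the ADAM protease genes sup-17 and adm-4 at 6.09 and 4.27 and the presenilin gene sel-12 at 5.17. In the nuclear complex lag-1 lay 5.28 ± 0.14 and its Mastermind-like partner sel-8 2.73 ± 0.09 above background (SD, n = 4).

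The Groucho genes, the genes for AB fates and the measured Notch targets outside the family were all above background. So were the endoderm GATA genes except med-1 and med-2, beside 51.9% of all named genes. The Groucho corepressor gene unc-37 lay 6.41 ± 0.22 and the related lsy-22 6.16 ± 0.16 above background on the log2 scale (SD, n = 4). Of the 6 endoderm GATA factor genes, 4 passed, with end-1 at 3.04, end-3 at 0.64, elt-2 at 3.98 and elt-7 at 3.72. For med-1 and med-2, close copies of each other, the distances of -0.0035 and -0.10 did not pass the test (limma adjusted p = 0.969 and 0.278). All 5 genes of the list for fates of the AB daughters were above, including the T-box genes tbx-37 at 3.41 and tbx-38 at 4.73 and the pharynx selector pha-4 at 4.92. The 8 measured Notch targets outside the family also all passed, with the germline targets lst-1, sygl-1 and fbf-2 at 6.25, 5.81 and 3.00.

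Among 34 other bHLH genes, 20 were above background, 10 below and 4 were not told apart, beside 51.9% above and 39.1% below among all named genes. The muscle factor gene hlh-1 lay 4.69 above, the E protein gene hlh-2, whose product pairs with many bHLH factors, 5.93, and the achaete-scute homolog hlh-3 5.19. The genes hlh-10 and hlh-12 were below at -0.83 and -0.86. The Hairy relative lin-22, singled out after its value was seen, was below at -0.98.

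**Figure D3:**
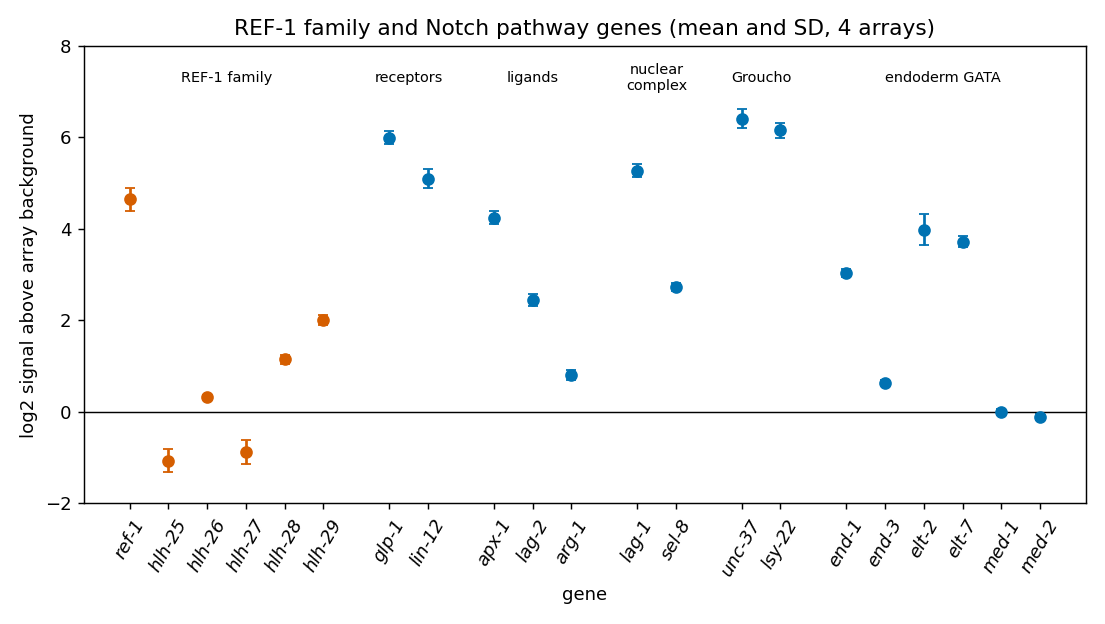
Log2 signal above array background (points are means and bars SD of 4 arrays) for the REF-1 family in orange and for Notch pathway, Groucho and endoderm GATA genes in blue. The receptors lie at 5.99 and 5.10 and the family spreads from -1.07 to 4.65; heights of different genes rest on different probes.

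The arrays did not differ alike for all members. For hlh-26, hlh-28 and hlh-29 array 1 was the lowest and array 2 the highest, a pattern that 3 of 6 members and 18.4% of all transcripts showed. Array 1 alone was the lowest for 3 of 6 members and for 43.6% of all transcripts. Log2 deviations from the mean of the 4 arrays on arrays 1 to 4 were -0.32, 0.26, -0.02 and 0.08 for hlh-29. They were -0.30, 0.23, 0.01 and 0.05 for hlh-28, and -0.21, 0.16, -0.05 and 0.10 for hlh-26. The 3 genes thus ran through the arrays in a like way, and hlh-26 lies on another chromosome from the pair. Since the signal of hlh-28 and hlh-29 cannot be assigned to one gene or the other, these may not be 3 separate signals.

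The remaining members differed from that pattern. For ref-1 the deviations were -0.01, 0.17, 0.05 and -0.20, so that array 4 was the lowest and array 1 was near the mean. The signal of hlh-25 was lower on array 4 than on the other arrays, and that of hlh-27 was highest on array 1. Both of these genes are below background, and differences between arrays were not tested for any gene. Over the 4 arrays the SD of the log2 signal was 0.15 for ref-1, 0.17 for hlh-26, 0.22 for hlh-28 and 0.24 for hlh-29. It was 0.094 for hlh-25 and 0.087 for hlh-27, against a median of 0.12 over all transcripts.

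The duplicates hlh-28 and hlh-29 moved most alike of the 15 pairs of members. The root mean square difference between their deviations was 0.027 on the log2 scale, and the difference of their log2 signals varied by an SD of 0.031 over the arrays. Of 10066 named genes whose brightest transcript was above background, 27 were nearer to hlh-28 than hlh-29 was. The next pairs were hlh-26 with hlh-28 at 0.067, hlh-26 with hlh-29 at 0.075 and ref-1 with hlh-25, which is below background, at 0.077. From hlh-28 and hlh-29 ref-1 lay 0.20 and 0.22. Of the same 10066 genes, 627 were nearer to hlh-26 than hlh-28 was, and 71 were nearer to ref-1 than hlh-25 was. Of 10062 such genes outside the family, 295 lay within 0.05 of hlh-26, 171 of hlh-28, 144 of hlh-29 and 8 of ref-1.

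The genes with the nearest patterns were the following, by the root mean square difference over the 4 arrays. For ref-1 they were chin-1, a chimaerin gene, at 0.020 and pqn-22, a gene with a glutamine- and asparagine-rich product, at 0.028. For hlh-26 they were Y54E2A.4 at 0.0072 and Y54G2A.19 at 0.0086. For hlh-28 they were tofu-7, known from screens for piRNA production, at 0.0050 and F13H8.11 at 0.00565. For hlh-29 they were the F-box gene fbxb-25 at 0.0084 and C53A3.1 at 0.012.

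Other early genes, and most sperm markers, moved between the arrays with hlh-26, hlh-28 and hlh-29. All 10 early zygotic markers were lowest on array 1 and 9 of 10 were also highest on array 2, with median deviations of -0.22, 0.14, 0.03 and -0.0025 on arrays 1 to 4. The GATA genes end-1 and end-3 deviated by -0.24 and -0.23 on array 1, and the embryonic gene pes-10 by -0.07. Among the other GATA genes med-1 and med-2 deviated by -0.26 and -0.27 there and elt-7 by -0.05, whereas elt-2 stood at 0.28. Of the 15 ligand genes, 4 were lowest on array 1 and highest on array 2, beside 18.4% of all transcripts. Among these arg-1 ran from -0.36 on array 1 to 0.27 on array 2. Another 5 ligand genes were highest on array 1. Among them dsl-6, singled out after its values were seen, ran from 1.22 there to -0.86 on array 2. The 10 maternal markers were also lowest on array 1, with a median of -0.11, of which 1 was highest on array 2. All 9 sperm markers were lowest on array 1 (median -0.38), as were 7 of 9 eggshell markers (median -0.36), beside the 43.6% of all transcripts that were. Of the sperm markers 7 of 9 were also highest on array 2 (median 0.31). For the eggshell markers this joint pattern was seen in 0 of 9. With array background subtracted, 1 of 10 early zygotic markers was lowest on array 1 and 9 on array 4, where 52.2% of all transcripts were lowest. None of the early zygotic markers then showed the joint pattern, and their median on array 1 was 0.01. The joint pattern remained for 3 of 9 sperm markers, beside 2.15% of all transcripts. The corresponding counts lowest on array 1 were 0 of 10 for maternal, 4 of 9 for sperm and 7 of 9 for eggshell markers, beside 7.29% of all transcripts.

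Muscle genes and most other bHLH genes ran the other way. All 14 muscle markers were highest on array 1, beside 7076 of all 23181 transcripts. The summed signal of the muscle markers was 78613, 24779, 41498 and 30863 on arrays 1 to 4. The summed signal of the early zygotic markers was 46797, 56076, 51818 and 51105, and that of the eggshell markers 57808, 83372, 85012 and 93729. Of the 34 other bHLH genes, 28 were highest on array 1, with a median deviation of 0.19. Array 1 was the lowest for 3 of them, beside 43.6% of all transcripts. Later cell types, oocyte and sperm genes thus moved across the same arrays as hlh-26, hlh-28 and hlh-29, and their part in the differences of these genes was not tested. The lists share hlh-1, end-1, end-3, tbx-37, tbx-38 and lag-2 with each other.

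The chemoreceptor percentile used as background also differed between the arrays, lowest on array 1 and highest on array 4. The 75th percentile of the same genes differed less, at 7.43, 7.53, 7.43 and 7.54 on arrays 1 to 4. The following SDs thus belong to the 95th percentile chosen. With it subtracted, the SD of hlh-26 went from 0.17 to 0.04 and that of hlh-28 from 0.22 to 0.10. That of hlh-29 went from 0.24 to 0.11, while that of ref-1 went from 0.15 to 0.25. On that scale hlh-29 was the 1 member still lowest on array 1, where 7.29% of all transcripts were lowest. The subtraction also moved the median deviation of all transcripts on array 1 from -0.03 to 0.20. Measured from that median, hlh-26, hlh-28 and hlh-29 lay at -0.18, -0.27 and -0.29 on array 1. From the median of array 2 they lay at 0.14, 0.22 and 0.24. The corresponding values of ref-1 were 0.02 and 0.15. All these values are the same on either scale by construction, because the subtraction shifts every transcript of an array alike. They therefore do not test the choice of scale.

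**Figure D4:**
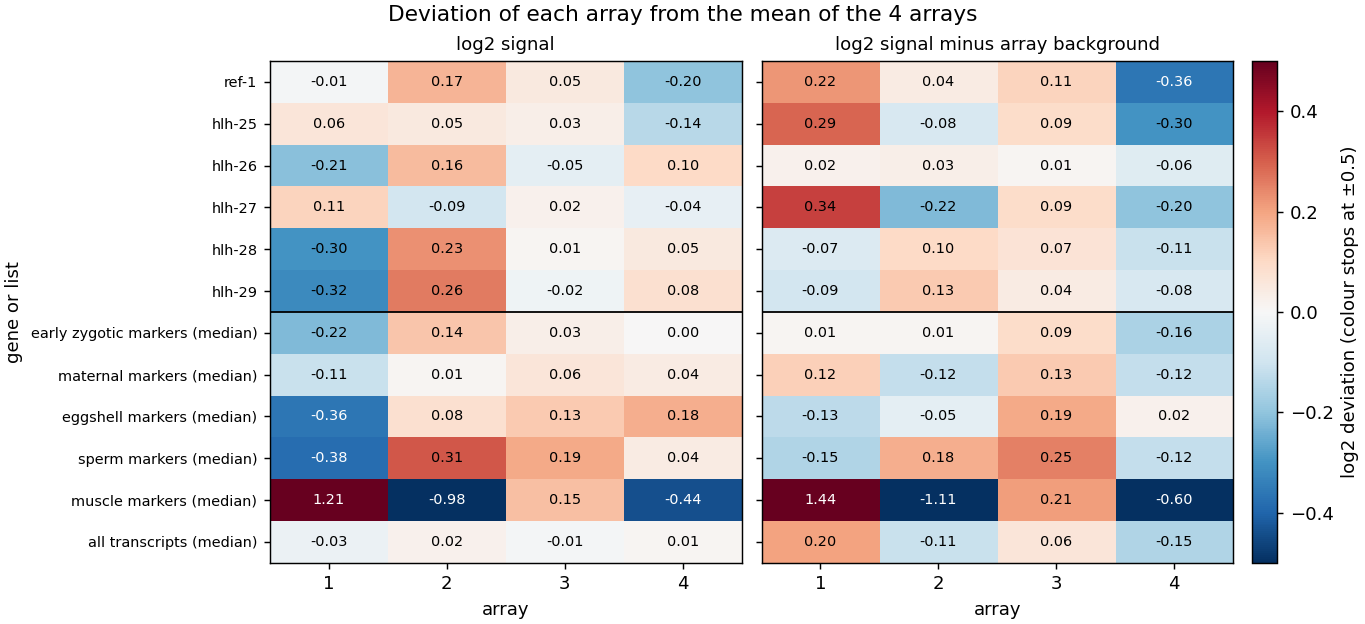
Log2 deviation of arrays 1 to 4 from the mean of the 4 arrays for each REF-1 family gene, and as medians for marker lists and all transcripts, for the log2 signal (left) and for the log2 signal minus array background (right). On the left hlh-26, hlh-28 and hlh-29 are negative on array 1 and positive on array 2, as are the early zygotic markers, while muscle markers stand at 1.21 and -0.98; on the right hlh-28 and hlh-29 keep these signs and hlh-26 lies near 0 on both.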

How the data were processed

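Each sample's deposited table held 1 linear intensity per transcript, quantile normalized between arrays and averaged, both by the authors according to file names and, per the file headers, as a normalized mean. Labelling was done by NimbleGen, per the labels' protocols. For the scanner, background correction, genome build and number of probes behind a value, nothing is stated. The series-wide table held identical values (largest difference 0).

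Transcripts were named through the RefSeq gene table of assembly WBcel235, used for names, gene order and gene length: 17151 matched as written, 5352 without the isoform letter, and 678 did not match. A gene took its brightest transcript and counted as above background if any transcript did. Intensities were taken as log2 (values below 1 raised to 1, which none were). The distance from array background was tested in R 4.3.3 by limma 3.58.1 (an intercept-only lmFit, then eBayes), with Benjamini-Hochberg adjustment at 0.05. The step was also run on simulated data with independent noise for each transcript. These held no shift shared by all transcripts of an array, so that run does not cover errors in the background itself. Deviations between arrays are descriptions without a test.

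Members and gene lists were chosen with earlier results of these data known. Named were all members, all receptors, nuclear complex, Groucho and GATA genes, the first 3 measured of the other lists where a list is exemplified, up to 2 with the opposite call, the neighbours on the chromosome, and the 2 genes nearest in pattern to each member above background. The genes lin-22 and dsl-6 were named outside this rule. No gene was found for lst-3 and apm-2. Nucleotide and protein sequences were not used here. Quantile normalization hides any shift of most transcripts between arrays. The number of arrays limits the precision. Alternatives were other backgrounds, a filter, a floor of 16, a variance trend, other scalings and each replicate left out.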

Additional observations from a re-analysis of the deposited data

How the results depend on the processing

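The calls of ref-1, hlh-25, hlh-28 and hlh-29 kept their direction and stayed past the threshold in each alternative that gave a value, with ref-1 between 3.74 and 5.48 log2 from background. Members called above were 3 with the 99th percentile of the chemoreceptor genes, when hlh-26 turned to -0.59, and 4 in the other alternatives. Members called below were 1 with the 75th percentile, and 0 under the filter on low values, which removes hlh-25 and hlh-27 from the test. Transcripts called above numbered between 10889 and 16824. Leaving out any replicate changed no member's call, although hlh-26 then lay between 0.31 and 0.34. With array background subtracted, 1 member was lowest on array 1 in place of 3, as were 7.29% of all transcripts in place of 43.6%, and the family's median deviation there was 0.12 in place of -0.11. That scaling moves all transcripts on array 1 upwards. Without replicate 2 this median was -0.057, and without replicate 3 or 4 it was -0.11 or -0.13. Without replicate 4, ref-1 too was lowest on array 1, making 4 members. The planned comparison of protein and promoter sequences was not run, since sequences were not used here. No paired analysis was possible because all samples form 1 group. A signal near background, as for hlh-26, is limited by where the background is set.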
